A study of Mus musculus with 22 samples.

Results

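The enzymes of cholesterol synthesis were examined in lumbar spinal cord of mice with joint pain. The group consisted of 8 genes, taken by symbol from the deposited table: Hmgcs1, Idi1, Fdps, Fdft1, Sqle, Lss, Cyp51 and Dhcr7. All 8 were found among the 17306 genes of the table and all 8 passed the filter on low values, which left 16765 genes for testing. Every mouse was a wild-type C57BL6J animal of 12 to 14 weeks that had received 1 mg sodium iodoacetate (MIA), a toxin used to model osteoarthritis, into the knee joint, and all cords (segments L4-L6) were taken on day 30 after MIA. SAFit2, an inhibitor of the stress regulator FKBP51, was given at 100 mg/kg in a slow-release vesicular phospholipid gel (VPG), and Vehicle mice received the gel alone. Late mice were treated on days 20 and 27. Early mice were treated on days -3 and 4 by the series description, whereas the sample protocol gives day 3 for the first gel. SAFit2 was given to 5 Early and 5 Late mice and the gel alone to 6 Early and 6 Late mice, 22 in all. The titles of the Early SAFit2 mice read SAFit1 and their treatment labels read SAFit2. No mouse without MIA and no mouse without gel was among them, and the gel is itself made of phospholipid, so every value below is from an injured mouse given lipid gel. The labels call Early and Late separate batches, so timing and batch cannot be told apart where Late mice are set against Early mice. The treated mice of each timing have Vehicle mice of their own batch.

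Cells build cholesterol from acetyl-CoA through mevalonate, isoprenoid diphosphates, squalene and lanosterol. The genes of the pathway are classically switched on together when membrane sterol is low: the escort protein SCAP then carries the precursors of the SREBP transcription factors to the Golgi, where they are cut and released to the nucleus. In the nervous system cholesterol is made locally, most of it resides in myelin, and oligodendrocytes and astrocytes are the main producers. Of the 8 enzymes, Hmgcs1 makes HMG-CoA and Idi1 interconverts the isoprenoid units. Fdps joins these units to farnesyl diphosphate and Fdft1 joins farnesyl diphosphate to squalene. Sqle oxidises squalene, Lss closes the rings to lanosterol, Cyp51 removes a methyl group from lanosterol and Dhcr7 catalyses the last reduction to cholesterol.

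The 8 genes lie on 7 chromosomes (coordinates of the RefSeq genes, GRCm38.p6, the assembly underlying the mm10 build named for these data). Hmgcs1 (Entrez 208715) is at chr13:119690351-119708260 and Idi1 (319554) at chr13:8885606-8892396. Fdps (110196) is at chr3:89093588-89101967, Fdft1 (14137) at chr14:63145150-63181687 and Sqle (20775) at chr15:59315092-59331193. Lss (16987) is at chr10:76531565-76557139, Cyp51 (13121) at chr5:4080674-4104697 and Dhcr7 (13360) at chr7:143823167-143848410. Reads were counted over whole genes, so all values below are levels of a gene and not of a transcript.

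RefSeq promoter sequence (GRCm38.p6) was at hand for 5 of the 8 genes, Hmgcs1, Idi1, Lss, Cyp51 and Dhcr7, with 3 windows for Dhcr7. The 250 bases before the annotated start were searched on both strands for letters of factors known to act on this pathway. TCACNCCAC, a form of the sterol regulatory element bound by SREBPs, was present in 1.05% of all 32851 promoters and, of the 5 genes, in that of Hmgcs1. CCAAT, bound by the NF-Y complex that works beside SREBPs, was present in 33.85% of all promoters and in those of Hmgcs1, Idi1, Lss and Cyp51 and in 1 window of Dhcr7. GGGCGG, the GC box bound by Sp factors, was present in 32.7% of all promoters and in those of all 5 genes. CACGTG, an E-box, was present in 6.02% and in 1 window of Dhcr7. The Hmgcs1 sequence is shown for chr13:119690201-119690350 (plus strand), the 150 bases before its start, since it carries both a sterol regulatory element, 137 bases before the start, and a CCAAT box read on the other strand (ATTGG), 45 bases before it. Capitals mark the letters of these motifs.
Hmgcs1: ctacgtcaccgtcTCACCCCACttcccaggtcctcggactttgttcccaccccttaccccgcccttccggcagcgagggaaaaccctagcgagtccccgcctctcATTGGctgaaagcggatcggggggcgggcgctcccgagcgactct

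The CCAAT letters nearest to the start of the other genes are shown with up to 10 bases on each side, in the direction of the gene and in capitals, so that the enzymes with a promoter at hand can be compared. Among them are Hmgcs1, Idi1 and Cyp51, which varied most alike between mice in the deposited values, and Dhcr7, which varied against Hmgcs1. These relations were weaker once the trend of each library over GC content and length was removed, as given below. The r of Hmgcs1 was then 0.28 with Idi1, 0.35 with Cyp51 and -0.27 with Dhcr7, and that of Idi1 with Cyp51 was 0.61. They lie 14 bases before the start of Idi1 (chr13:8885582-8885605), 62 bases before that of the Lss window (chr10:76531533-76531557), 29 bases before that of Cyp51 (chr5:4104712-4104736, minus strand) and 49 bases before that of window 3 of Dhcr7 (chr7:143830155-143830179). The start used for the Lss window, like that of window 3 of Dhcr7, lies inside the gene coordinates given above. In GENCODE M21 the Idi1, Cyp51 and Dhcr7 letters lie in an exon of the gene, because some of its transcripts start further upstream.
Hmgcs1: cccgcctctcATTGGctgaaagcgg
Idi1: ccaaggtgccATTGGctggcgacc
Lss: tgatgctctgATTGGccgagctcgc
Cyp51: ctgtccgccaCCAATctggtcctga
Dhcr7: tccacttccgATTGGtcgtctgtga
Such a match describes the sequence only.

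The values are log2 CPM (the base-2 logarithm of the reads of a gene scaled to a common library size), and depth was between 11352989 and 24433349 reads on genes. Hmgcs1 was covered by 6154 to 13351 reads per library and Lss, the least covered, by 89 to 484, so Lss carries the most counting error of the 8. Per kilobase of the longest transcript the order of levels over all 22 mice was Hmgcs1, Cyp51, Idi1, Fdft1, Fdps, Sqle, Dhcr7 and Lss. On the log2 CPM per kilobase scale the mean level was 7.26 ± 0.27 (SD, n = 22) for Hmgcs1, 5.56 ± 0.27 for Cyp51, 5.46 ± 0.35 for Idi1 and 5.30 ± 0.24 for Fdft1. It was 4.94 ± 0.22 for Fdps, 4.61 ± 0.23 for Sqle, 3.52 ± 0.34 for Dhcr7 and 1.27 ± 0.33 for Lss. Hmgcs1 was above Cyp51 in all 22 mice, by 1.70 ± 0.14. Cyp51 and Idi1 did not differ beyond their spread (0.10 ± 0.24, Cyp51 higher in 10 of 22 mice), nor did Idi1 and Fdft1 (0.16 ± 0.42, Idi1 higher in 15 of 22). The remaining neighbours differed by more than the SD of their difference. The longest transcript of Lss, at 6992 bases, is the longest of the 8, and a shorter transcript would place its level higher on this scale.

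**Figure D1:**
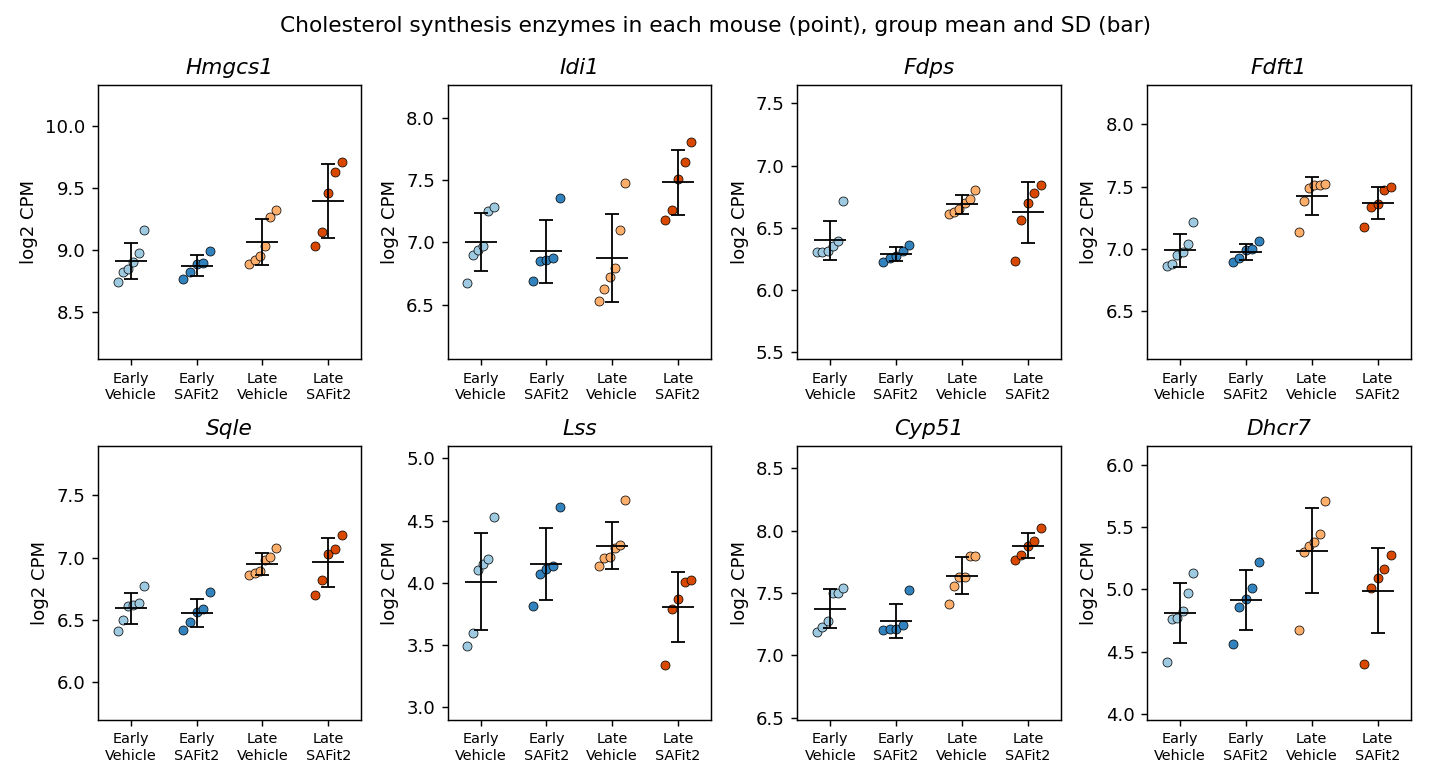
Log2 CPM (vertical axis, each panel 2.2 log2 units high) of the 8 enzymes in every mouse, in the groups Early Vehicle (n = 6), Early SAFit2 (n = 5), Late Vehicle (n = 6) and Late SAFit2 (n = 5). Points are mice, horizontal bars are group means and whiskers are SD. The late means of Fdft1, Sqle and Cyp51 lie above both early means, and Lss is the enzyme whose late SAFit2 mice all lie below their Vehicle mice.

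The first comparison asked whether early treatment, given around the time of injury, still marked the enzymes on day 30. No difference between Early SAFit2 and Early Vehicle was detected for any enzyme, with 5 against 6 mice. Log2 fold changes ran from -0.11 (Fdps, SE 0.10) to 0.14 (Lss, SE 0.18), with 6 below 0 and 2 above it. With limma 0 of 8 were called at an adjusted p under 0.05 and 1.2-fold, as were 0% of all genes tested, and 0 of 8 had a nominal p under 0.05, against 2.48% of all genes. The groups overlapped for all 8 enzymes, and 0.352% of all genes had groups without overlap. Fdps was 6.37, 6.27, 6.32, 6.26 and 6.23 log2 CPM in the Early SAFit2 mice, and between 6.31 and 6.71 with a median of 6.33 in the Early Vehicle mice. All 5 treated mice were below the Vehicle mean, but the lowest exact permutation p of the 8 enzymes was this one, 0.126 (two-sided, 462 splits). The median log2 fold change of the 8 was -0.04 and that of all genes 0.01.

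The second comparison, Late SAFit2 against Late Vehicle, covered the time when the gel of day 27 was still recent. Here the pathway did not move as a block: 4 enzymes had log2 fold changes above 0 and 4 below it, and their median was -0.02, against -0.05 over all genes. Idi1, at the isoprenoid step, rose 1.52-fold and was the 1 enzyme called (1 of 8, against 12.1% of all genes tested). At a nominal p under 0.05 stood 4 of 8 enzymes, 3 higher (Hmgcs1, Idi1, Cyp51) and 1 lower (Lss), against 34.5% of all genes.

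Idi1 was 7.18, 7.26, 7.51, 7.81 and 7.65 log2 CPM in the Late SAFit2 mice, and between 6.53 and 7.48 with a median of 6.76 in the Late Vehicle mice. All 5 treated mice lay above the Vehicle mean, but the groups overlapped, because Late Vehicle 6 was at 7.48. The log2 fold change was 0.61 (SE 0.16, adjusted p = 0.0324) and the exact permutation p was 0.0152 (two-sided). The call was lost without any one of Late Vehicle 1, 3, 4 or 5 or Late SAFit2 2, 4 or 5 (log2 fold change 0.53 to 0.66 in these fits, adjusted p up to 0.101), and after the trend of each library over GC content and transcript length had been taken out (0.26, adjusted p = 0.182). Over the settings that kept all libraries the adjusted p ran from 0.000221 to 0.182.

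Hmgcs1, at the entry to the pathway, was 9.03, 9.15, 9.46, 9.63 and 9.71 log2 CPM in the Late SAFit2 mice and 8.92, 9.27, 8.96, 9.04, 8.89 and 9.32 in the Late Vehicle mice. Late SAFit2 1 was below the Vehicle mean and the groups overlapped. The log2 fold change was 0.33 (SE 0.12, adjusted p = 0.0605, exact permutation p = 0.0563). Cyp51 was 7.77, 7.81, 7.88, 7.91 and 8.02 in the Late SAFit2 mice and between 7.41 and 7.80 with a median of 7.63 in the Late Vehicle mice. All 5 treated mice were above the Vehicle mean, with overlap from Late SAFit2 1 alone, and the log2 fold change was 0.24 (SE 0.10, adjusted p = 0.0818, exact permutation p = 0.0173). Neither passed the test across all genes.

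Lss, the cyclase, went the other way. It was 3.87, 4.01, 4.03, 3.79 and 3.34 log2 CPM in the Late SAFit2 mice and between 4.14 and 4.67 with a median of 4.25 in the Late Vehicle mice. The groups did not overlap, which held for 1 of 8 enzymes and 1.71% of all genes. The log2 fold change was -0.49 (SE 0.18), which is 0.711 times the Vehicle level. The exact permutation p was 0.0022, the smallest that 462 splits allow, while the adjusted p across all genes was 0.0605, so Lss was not called. Its fold change was hardly altered by removal of the GC and length trend (-0.52, adjusted p = 0.133, with 0.0353 to 0.134 over the settings that kept all libraries). Its GC content, 48.7%, is close to the median of 49.7% over the genes tested, so the GC part of this removal could shift it little. The 3 enzymes above have lower GC content, so the contrast with them does not show that the Lss change is the firmer one.

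Dhcr7 was lower than the Vehicle mean in all 5 Late SAFit2 mice (log2 fold change -0.32, SE 0.17, adjusted p = 0.178, exact permutation p = 0.171). Its lowest Vehicle mouse, Late Vehicle 6 at 4.68, lay below 4 of the 5 treated mice. The 3 enzymes in the middle of the pathway differed little. The log2 fold change was -0.06 for Fdps (SE 0.10), -0.06 for Fdft1 (SE 0.09) and 0.01 for Sqle (SE 0.09), with exact permutation p of 0.660, 0.528 and 0.898.

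The late fold changes followed the base composition of the genes. The GC content of the longest transcript was lowest for Idi1 (41.9%) and Hmgcs1 (43.1%), followed by Cyp51 (46.2%), Sqle (48.6%), Lss (48.7%), Fdps (50.6%), Fdft1 (51.8%) and Dhcr7 (52.8%), and 49.7% was the median over the genes tested. Across the 8 enzymes the late log2 fold change had r = -0.82 with GC content, and across 16213 genes r = -0.61, as a description, since genes are not independent and share the same 11 libraries. The GC slope of a library, the change of its log2 CPM relative to the mean library per 10 percentage points of GC content, was -0.30 ± 0.16 (SD, n = 5) in Late SAFit2 and negative in all 5, from -0.48 to -0.05. It was 0.17 ± 0.33 (n = 6) in Late Vehicle, positive in 4 and negative in Late Vehicle 2 (-0.16) and 6 (-0.32). These are the 2 Late Vehicle mice with the highest Idi1, Hmgcs1 and Cyp51. In the early groups it was 0.07 ± 0.17 (n = 5) and 0.02 ± 0.17 (n = 6). With the trend removed, the late log2 fold change was 0.04 for Hmgcs1, 0.26 for Idi1, 0.09 for Cyp51 and -0.18 for Dhcr7, and limma called 0 of 8 enzymes, as it did 0% of the 16213 genes with a GC value. At a nominal p under 0.05 were then 2 of 8 enzymes, against 15.5% of these genes. A treatment effect that itself went with GC content would be lost in this correction too.

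Markers of other cells stood as follows in the late mice. Of 12 markers of myelinating oligodendrocytes, 2 were called higher in Late SAFit2 (Ermn and Ugt8a) and 0 lower. The list was split, with 6 log2 fold changes above 0 and 6 below it, the lowest that of Mag (-0.48, adjusted p = 0.0591). The summed level of the 12 was 19944 to 24977 CPM in Late SAFit2 and 18610 to 22562 in Late Vehicle. Of 8 astrocyte markers 1 was called higher (Gjb6), with sums of 5638 to 6947 and 5169 to 6221 CPM. Here 6 were above 0 and 2 below it, with Gfap the lowest (-0.35, adjusted p = 0.0853). The 7 neuron markers summed to 4257 to 4782 CPM in Late SAFit2 and 3407 to 4346 in Late Vehicle, although the 1 called, Slc32a1, the transporter that loads GABA and glycine into vesicles, was lower (-0.55, adjusted p = 0.0456). Of the 7, 3 had log2 fold changes above 0 and 4 below it. Snap25 (log2 fold change 0.37, not called) weighs most in the sum, at a mean of 11.75 log2 CPM in Late SAFit2 with the next highest at 8.62. The 6 microglia markers summed to 318 to 391 and 305 to 345 CPM, with 0 called. The 4 skeletal muscle markers summed to 1.61 to 183 CPM in Late SAFit2 and 1.39 to 3.28 in Late Vehicle, with 1 called (Tnnt3). The 3 Schwann cell markers summed to 0.665 to 2689 and 535 to 1254 CPM, with 0 called. No marker of the 8 cell type lists was at 0 in all libraries, and none of these lists had a called gene after removal of the GC and length trend, when 0% of all genes were called. The calls in these lists stand against 12.1% of all genes before removal. How the enzymes varied with the summed markers from mouse to mouse is given below with the GC slope. In whole tissue a change in the number of cells of a type and a change in RNA per cell cannot be told apart.

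**Figure D2:**
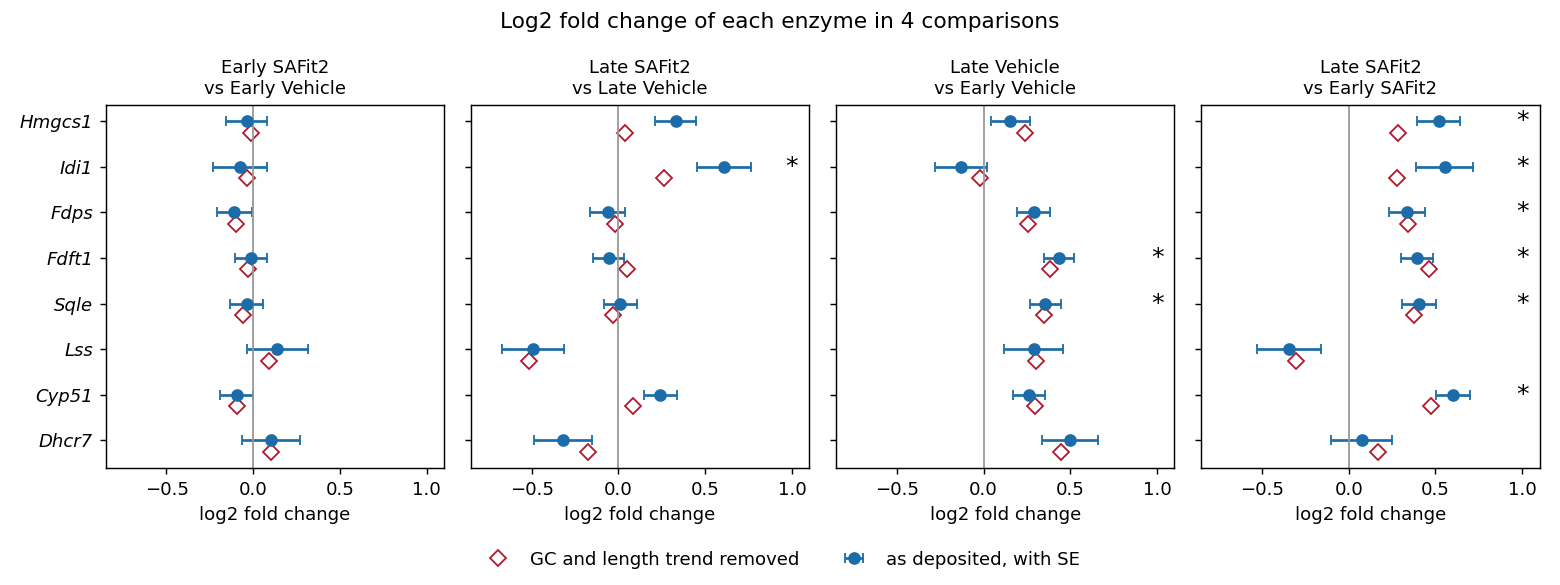
Log2 fold change (horizontal axis) of the 8 enzymes in 4 comparisons, as deposited (filled points, whiskers are the SE from limma) and with the GC and length trend of each library removed (open diamonds), and stars mark an adjusted p under 0.05 with 1.2-fold or more for the deposited values. In the late treatment comparison Hmgcs1, Idi1 and Cyp51, of low GC content, moved toward 0 with the trend removed. Lss, whose GC content is close to the median over the genes tested, did not. In the 2 comparisons of Late with Early the values of Fdps, Fdft1 and Sqle stayed close to the deposited ones.

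Averaged over both timings, 0 of 8 enzymes were called for SAFit2, as were 0% of all genes, and 1 of 8 (Idi1, log2 fold change 0.27, SE 0.11, adjusted p = 0.345, exact permutation p = 0.0748 over 213444 splits within timing) had a nominal p under 0.05, against 13.2% of all genes. The difference between the early and the late effect was tested directly with limma. It was not called for any enzyme (0 of 8, and 0% of all genes), with 4 of 8 at a nominal p under 0.05 against 24.9% of all genes. The early effect minus the late effect was -0.68 for Idi1 (SE 0.22, adjusted p = 0.120, exact permutation p = 0.0194), -0.37 for Hmgcs1 (SE 0.17, adjusted p = 0.178, exact permutation p = 0.0478), -0.34 for Cyp51 (SE 0.14, adjusted p = 0.140, exact permutation p = 0.0127) and 0.63 for Lss (SE 0.25, adjusted p = 0.137, exact permutation p = 0.0253). For the other 4 enzymes it lay between -0.05 and 0.42. The exact permutation p of this difference come from shuffles of treatment within each timing, so they test for no SAFit2 effect at either timing. They do not test whether the early and late effects are equal.

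The groups were then compared across timings within each treatment, where batch and time since the gel go together. In Vehicle mice 7 of 8 enzymes had log2 fold changes above 0 in Late against Early. Their median was 0.29, against 0.01 over all genes. Fdft1 and Sqle rose past the test (2 of 8 called, 2 higher and 0 lower, against 9.11% of all genes), and 5 of 8 had a nominal p under 0.05, against 24.3%.

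Fdft1, which commits farnesyl diphosphate to sterols, was between 6.86 and 7.22 log2 CPM with a median of 6.97 in Early Vehicle and between 7.13 and 7.52 with a median of 7.50 in Late Vehicle. The groups overlapped through Late Vehicle 6, which at 7.13 stood apart from the other 5 (7.38 to 7.52). The log2 fold change was 0.44 (SE 0.09, adjusted p = 0.00182, exact permutation p = 0.00433). Sqle was between 6.41 and 6.77 with a median of 6.62 in Early Vehicle and between 6.86 and 7.08 with a median of 6.94 in Late Vehicle. Its groups did not overlap (1 of 8 enzymes, against 4.92% of all genes), and the log2 fold change was 0.36 (SE 0.09, adjusted p = 0.0123, exact permutation p = 0.0022).

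Dhcr7 (0.50, SE 0.16, adjusted p = 0.0502), Fdps (0.29, SE 0.10, adjusted p = 0.0564) and Cyp51 (0.26, SE 0.09, adjusted p = 0.0678) were also above 0 and did not pass. These calls depended on the setting. Dhcr7 passed in 9 of 13 other settings that kept all libraries (adjusted p from 0.000222 to 0.0752) and without Early Vehicle 1, Early SAFit2 5, Late SAFit2 5 or Late Vehicle 6. Fdps passed in 3 of the 13 (0.000638 to 0.190) and without Early Vehicle 4, Late SAFit2 2 or Late Vehicle 6, and Cyp51 in 2 (0.00320 to 0.396) and without Early Vehicle 4 or Late Vehicle 3. All 6 Late Vehicle mice were above the Early Vehicle mean for Fdps, Fdft1, Sqle, Lss and Cyp51. For Lss the log2 fold change was 0.29 (SE 0.17, adjusted p = 0.308), for Hmgcs1 0.15 (SE 0.11, adjusted p = 0.432) and for Idi1 -0.13 (SE 0.15, adjusted p = 0.645). The log2 fold changes of Late against Early Vehicle also went with GC content, here upward. The r was 0.91 across the 8 enzymes and 0.19 across 16213 genes, as a description. With the GC and length trend removed 4 of 8 were called (Fdft1, Sqle, Cyp51 and Dhcr7), against 15.5% of all genes in that fit, and the median was 0.30, close to the value before. With quantile normalization Sqle was not called (log2 fold change 0.25, adjusted p = 0.0821, the highest over the settings that kept all libraries, with 0.000712 the lowest) and Hmgcs1 turned to -0.06.

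In SAFit2 mice, a comparison added after the values were seen, 6 of 8 enzymes rose in Late against Early, against 20.5% of all genes called, and 6 of 8 had a nominal p under 0.05, against 35.6%. Cyp51 rose most. It was 7.52, 7.21, 7.21, 7.20 and 7.24 log2 CPM in Early SAFit2 and 7.77 to 8.02 in Late SAFit2, with no overlap. Its log2 fold change was 0.60 (SE 0.10, adjusted p = 0.000311, exact permutation p = 0.00794, the smallest that 252 splits allow). Idi1 (0.55, adjusted p = 0.0189), Hmgcs1 (0.52, adjusted p = 0.00533), Sqle (0.41, adjusted p = 0.00602), Fdft1 (0.39, adjusted p = 0.00581) and Fdps (0.34, adjusted p = 0.0253) also rose. The Idi1 call was lost without Early SAFit2 2 or Late SAFit2 4 (adjusted p up to 0.0600), and the Fdps call without Early SAFit2 4 or 5 or Late SAFit2 3 or 5 (adjusted p up to 0.0690). Hmgcs1, Fdft1 and Cyp51 had groups without overlap (3 of 8, against 14.5% of all genes). The log2 fold change of Dhcr7 was 0.08 (adjusted p = 0.788) and that of Lss -0.34 (adjusted p = 0.184, all 5 Late mice below the Early mean). Between the SAFit2 timings the log2 fold change had r = -0.48 with GC content across the 8 enzymes and -0.40 across 16213 genes. With the GC and length trend removed, 6 of 8 were called as well, against 15.9% of all genes in that fit, and the log2 fold change fell to 0.29 for Hmgcs1 and 0.28 for Idi1 and was 0.47 for Cyp51. The median of the 8 was 0.40 before and 0.31 after this removal, against -0.07 over all genes before it. With quantile normalization 2 of 8 were called, Sqle and Cyp51, and no share of all genes is given for that fit.

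Markers of other cells differed between timings as well, beside 9.11% of all genes called in Vehicle mice and 20.5% in SAFit2 mice. Summed over 8 astrocyte markers, Late Vehicle had 5169 to 6221 CPM and Early Vehicle 4268 to 5432, with 2 of 8 called higher, and Late SAFit2 had 5638 to 6947 and Early SAFit2 3920 to 4881, with 5 of 8 called higher. Summed over 6 microglia markers the ranges were 305 to 345 and 248 to 310 CPM in Vehicle mice and 318 to 391 and 223 to 262 in SAFit2 mice, with 0 and 3 of 6 called. Of the 12 oligodendrocyte markers 1 was called higher in Late Vehicle (5 above 0 and 7 below it) and 4 in Late SAFit2 (8 above and 4 below). Of the 7 neuron markers 1 was called higher in each, Slc32a1 in Late Vehicle (0.59, adjusted p = 0.0285) and Slc17a6, a glutamate transporter of vesicles, in Late SAFit2 (0.51, adjusted p = 0.0107). Of these 7, 5 were above 0 and 2 below it in Vehicle mice, and 3 above and 4 below in SAFit2 mice. The neuron sums were 3407 to 4346 CPM in Late and 3231 to 4339 in Early Vehicle, and 4257 to 4782 in Late and 3754 to 4640 in Early SAFit2. Whether these markers account for the differences of the enzymes between timings was not tested.

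Co-variation between mice was measured on deviations from group means, so that differences between groups do not enter it. Over the 28 pairs of enzymes the median Pearson r was 0.07, with 15 pairs above 0 and 13 below, from -0.61 to 0.85. Over all 140524230 pairs of tested genes the median was 0.00, and 42.5% of pairs had at least the median r of the enzymes. Without single libraries the median r of the enzymes ran from 0.00066 (without Late SAFit2 3) to 0.16 (without Late SAFit2 4), and it also moved by over 1.5 times without Early SAFit2 3 or 5, Early Vehicle 4 or 5, Late Vehicle 2 or 6 or Late SAFit2 1 or 5. Some enzymes varied together and others in opposite directions, as the single pairs show.

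Hmgcs1, Idi1 and Cyp51 varied together. The r was 0.85 for Idi1 and Cyp51 (rho = 0.84, permutation p = 2e-05), 0.77 for Hmgcs1 and Idi1 (rho = 0.77, permutation p = 0.00011) and 0.71 for Hmgcs1 and Cyp51 (rho = 0.74, permutation p = 4e-05), over 22 mice with 100000 shuffles within groups. Adjusted over the 28 pairs these p were 0.00056, 0.001 and 0.00056, and those of rho 0.00056, 0.0032 and 0.0028. Without the 2 mice farthest from the median of the first gene the r were 0.82, 0.78 and 0.69. These were the 3 pairs at 0.7 or more, a level that 2.16% of all gene pairs reached. Dhcr7 went against Hmgcs1 (r = -0.61, adjusted permutation p = 0.032 and without 2 mice -0.53), but not past the test by rank (rho = -0.54, adjusted permutation p = 0.066). The remaining 24 pairs had adjusted permutation p of 0.077 or more for r. Of these, Sqle with Idi1 (r = 0.50, rho = 0.59) and Sqle with Cyp51 (r = 0.40, rho = 0.58) passed by rank (adjusted permutation p = 0.045 for each rho). Lss with Dhcr7 had r = 0.53 (rho = 0.46, adjusted permutation p = 0.077 and 0.11, without 2 mice 0.40). Fdps with Sqle had r = 0.56 (rho = 0.41, adjusted permutation p = 0.098 and 0.19), which fell to 0.23 without 2 mice. Lss with Cyp51 had r = -0.50 (rho = -0.47, adjusted permutation p = 0.092 and 0.11, without 2 mice -0.38).

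The libraries shared by these points differ in GC slope, and the 3 enzymes that varied together also varied with it. The slope is fitted over all genes with a GC value, so by construction genes of low GC content tend to go against it. Those of high GC content tend to go with it. The p-values below therefore do not set these enzymes apart from other genes of like GC content. The share of all genes that relate to the slope is not given. Against the GC slope, as deviations from group means, r was -0.89 for Idi1 (rho = -0.86, adjusted permutation p = 8e-05 over 8 enzymes), -0.77 for Cyp51 (rho = -0.72, adjusted permutation p = 0.0002) and -0.75 for Hmgcs1 (rho = -0.73, adjusted permutation p = 0.00027). It was 0.63 for Dhcr7 (rho = 0.57, adjusted permutation p = 0.0066). The adjusted permutation p of these rho were 0.00032, 0.0019, 0.0019 and 0.021, and the r without the 2 libraries farthest in slope were -0.84, -0.73, -0.69 and 0.60. Fdft1 (0.49), Lss (0.40) and Sqle (-0.32) had adjusted permutation p of 0.062, 0.062 and 0.14, and Fdps had r = -0.00. Depth (log2 reads on genes, as deviations) had r = -0.56 with Idi1, 0.58 with Dhcr7 and -0.47 with Hmgcs1. Their permutation p were 0.011, 0.01 and 0.1, not adjusted. The other r lay between -0.36 (Cyp51) and 0.33 (Lss). Late SAFit2 4 and 5, the shallowest libraries, had the highest Idi1, Hmgcs1 and Cyp51 of their group. The parts of depth and GC slope were not tested separately.

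The same enzymes also varied with summed cell markers, in relations chosen after the values were seen. Of 64 relations (8 enzymes with 8 marker lists, log2 of the summed level, deviations from group means) 9 had an adjusted permutation p under 0.05, 5 of them with neurons. Against the neuron sum r was 0.82 for Idi1 (rho = 0.75, adjusted permutation p = 0.0013 and 0.011), 0.71 for Hmgcs1 (rho = 0.72, adjusted permutation p = 0.0013 and 0.011) and 0.77 for Cyp51 (rho = 0.71, adjusted permutation p = 0.0081 and 0.024). It was -0.61 for Dhcr7 (rho = -0.58, adjusted permutation p = 0.037 and 0.070) and -0.61 for Lss (rho = -0.53, adjusted permutation p = 0.037 and 0.094), neither past the test by rank. Without the 2 libraries farthest in the neuron sum these r were 0.77, 0.67, 0.71, -0.45 and -0.59. The 3 enzymes that varied together were higher in libraries with a higher neuron sum. Snap25, the highest of the 7 neuron markers, weighs most in this sum, and relations with single neuron markers were not tested.

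Against the microglia sum Cyp51 had r = 0.70 (rho = 0.71, adjusted permutation p = 0.023 and 0.024, without 2 libraries 0.78) and Idi1 r = 0.60 (rho = 0.64, adjusted permutation p = 0.037 and 0.037, without 2 libraries 0.71). Hmgcs1 had 0.52 (rho = 0.59, adjusted permutation p = 0.12 and 0.070), and Dhcr7 had -0.57, past the test by rank alone (rho = -0.62, adjusted permutation p = 0.056 and 0.039). Against the sum of 3 red cell markers Idi1 had r = -0.63 (rho = -0.64, adjusted permutation p = 0.037 and 0.040, without 2 libraries -0.77) and Cyp51 -0.58 (rho = -0.56, adjusted permutation p = 0.037 and 0.070, without 2 libraries -0.70). Astrocyte sums had r = 0.56 with Cyp51 and 0.55 with Idi1 (rho = 0.40 and 0.47), with adjusted permutation p of 0.080 and 0.069. No enzyme passed with the sums of oligodendrocytes, their precursors, Schwann cells or muscle.

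The marker sums and the GC slope moved together. The slope is fitted over all genes, markers included, so sums led by genes of low or high GC content tend to follow it. Across the same 22 libraries the neuron sum had r = -0.89 with the GC slope (rho = -0.89, permutation p = 1e-05, the smallest that the shuffles can give, adjusted 8e-05 over 8 lists, without 2 libraries -0.87). The r was 0.75 for red cells (rho = 0.77, adjusted permutation p = 0.00044), -0.67 for astrocytes (rho = -0.60, adjusted permutation p = 0.0019) and -0.61 for microglia (rho = -0.64, adjusted permutation p = 0.0022), and 0.69, -0.60 and -0.64 without 2 libraries. With the GC and length trend removed from enzymes and markers alike, the r with the neuron sum was -0.10 for Idi1, 0.10 for Hmgcs1, 0.35 for Cyp51, -0.04 for Dhcr7 and -0.31 for Lss. The r with the microglia sum was then 0.46 for Cyp51 and 0.28 for Idi1. The parts of the GC slope and of the neuron markers in the enzyme values were not tested separately.

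After removal of each library's GC and length trend the pattern of pairs was another one: Fdps and Sqle had r = 0.70, Idi1 and Fdps 0.65, Fdps and Cyp51 0.63 and Idi1 and Cyp51 0.61, whereas Hmgcs1 and Idi1 had 0.28 and Hmgcs1 and Cyp51 0.35. Lss and Dhcr7 had the same r as before (0.53), and Lss was below 0 with each of the other 6 enzymes (-0.44 to -0.19). The median of the 28 pairs was then 0.22 with 17 above 0, and 24.7% of all gene pairs had at least that r.

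**Figure D3:**
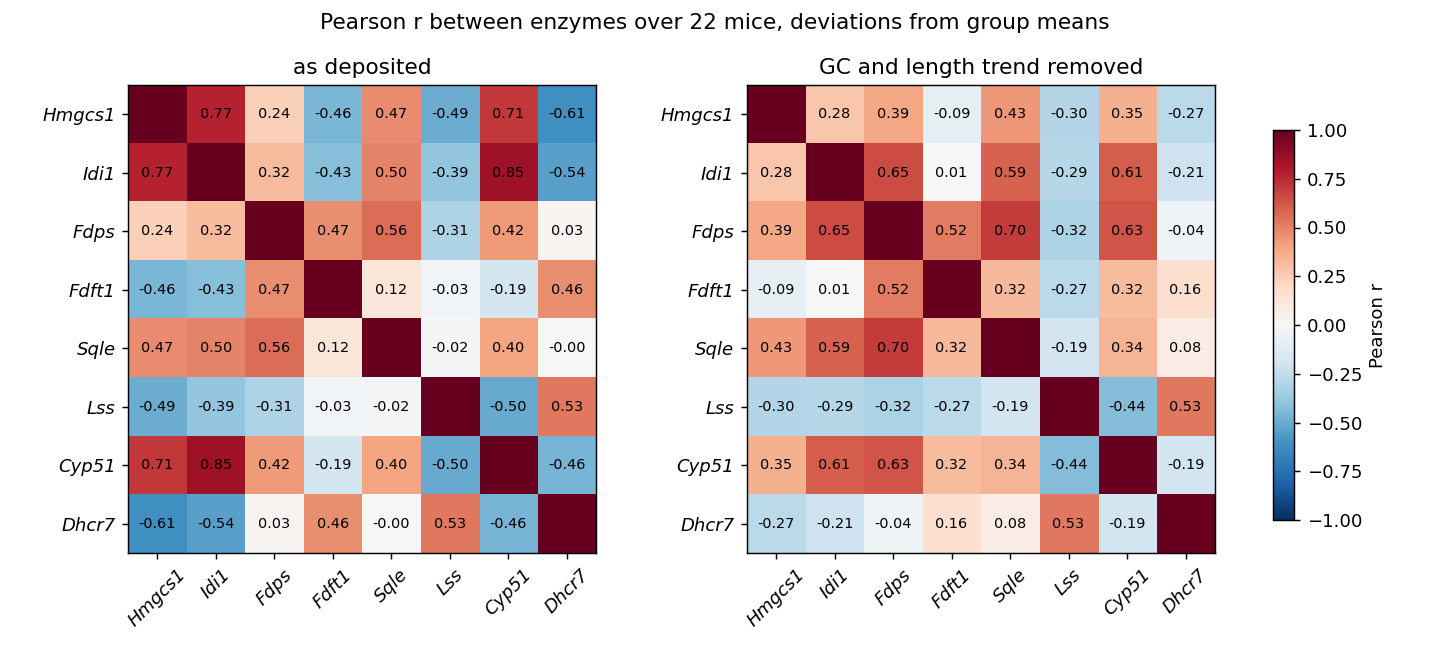
Pearson r between each pair of the 8 enzymes over 22 mice, on deviations from group means, for the deposited values (left) and with the GC and length trend of each library removed (right), with red for positive and blue for negative r on a scale from -1 to 1. The block of Hmgcs1, Idi1 and Cyp51 (0.71 to 0.85) on the left gives way on the right to one of Idi1, Fdps, Sqle and Cyp51, of which Sqle and Cyp51 had 0.34.

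**Figure D4:**
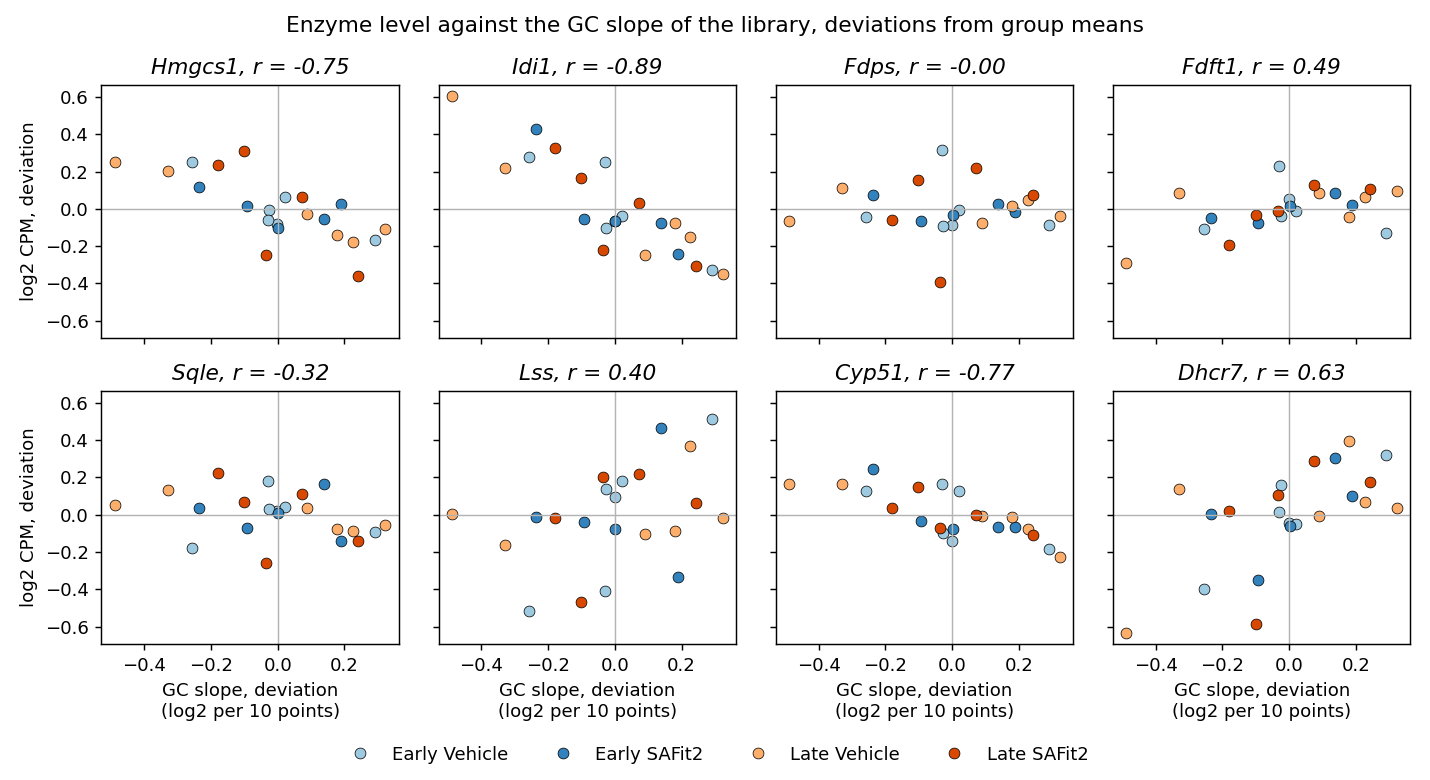
Deviation of each enzyme from its group mean in log2 CPM (vertical axis) against the deviation of the library's GC slope (horizontal axis, log2 per 10 percentage points), with 1 point per mouse coloured by group. Idi1, Hmgcs1 and Cyp51 fell along the axis (r from -0.89 to -0.75), Dhcr7 went up (0.63) and Fdps lay flat (-0.00).

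The genes whose deviations were most like the mean of the 8 scaled enzyme profiles, out of 16757 other genes, were Nxpe3 (r = 0.86), Zfp791 (0.76), Ube4a (0.75), Prkaa1 (0.71), Xrcc2 (0.70), Tmem209 (0.69), Wee1 (0.69), Rbm12 (0.69), Sp9 (0.68) and Trmt2b (0.68), over 22 mice. None of the 10 belongs to the lists of the sterol pathway. They are the top of many genes in few mice, and 2.09% of genes had r of 0.5 or more. With the GC and length trend removed 2 of the 10 (Nxpe3 and Sp9) stayed among the 10 most alike and 9 among the 100 most alike. Of the listed pathway genes the most alike were Acat2, which makes acetoacetyl-CoA (0.67, place 16), Vldlr, a lipoprotein receptor (0.65, place 23), and Msmo1, a sterol oxidase (0.55, place 134). Of the enzymes themselves Sqle (0.85) and Fdps (0.76) were nearest to their common mean, and Lss (-0.06) and Dhcr7 (0.11) farthest from it. Each enzyme is part of that mean, which raises its own r, so these r are not comparable with those of other genes.

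The rest of the pathway was described in the same fits. Of 16 other synthesis enzymes 15 were tested. In Late SAFit2 against Late Vehicle 0 were called higher and 2 lower, against 12.1% of all genes called, Mvk (-0.58, SE 0.17, adjusted p = 0.0389) and Mvd (-0.62, SE 0.20, adjusted p = 0.0467), the kinase and the decarboxylase of mevalonate, which sit between Hmgcs1 and Idi1. The list's median log2 fold change was 0.04, its lowest was that of Mvd and its highest that of Hsd17b7, a sterol ketoreductase (0.35, SE 0.12, adjusted p = 0.0575). In Late against Early Vehicle 2 were called higher and 0 lower, against 9.11% of all genes, Mvd (0.79, SE 0.19, adjusted p = 0.00940) and Hsd17b7 (0.42, SE 0.12, adjusted p = 0.0231), with 12 of 15 above 0 and a median of 0.25. In Late against Early SAFit2 5 rose, all but Acat2 in the sterol branch: Nsdhl (0.63), Msmo1 (0.54), Hsd17b7 (0.51), Sc5d (0.35) and Acat2 (0.30), against 20.5% of all genes called. With the GC and length trend removed the late treatment comparison had 0 calls in this list (0% of all genes), and Late against Early Vehicle had 7 higher (15.5% of all genes called). Between the SAFit2 timings 3 were then called higher (Nsdhl 0.43, Msmo1 0.34 and Mvd 0.40) and 1 lower (Lbr, a sterol reductase of the nuclear envelope, -0.54, adjusted p = 0.0253), against 15.9% of all genes. The calls of Hsd17b7 (0.33, adjusted p = 0.0552), Sc5d (0.15, adjusted p = 0.277) and Acat2 (0.24, adjusted p = 0.0876) were lost.

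Of 12 regulators of synthesis, 3 were called lower and 0 higher in Late SAFit2 against Late Vehicle, against 12.1% of all genes called, with a list median of -0.18. They were Srebf1, which encodes an SREBP (-0.93, SE 0.23, adjusted p = 0.0324), the escort Scap (-0.69, SE 0.19, adjusted p = 0.0331) and Nr1h2, a sterol-sensing nuclear receptor (-0.71, SE 0.23, adjusted p = 0.0453). Srebf1 was the lowest of the list and Mbtps2, a protease that releases SREBPs, the highest (0.29, SE 0.16, adjusted p = 0.216). Insig1, which holds SCAP back in the endoplasmic reticulum and is itself induced by SREBPs, rose in Late against Early Vehicle (0.40, SE 0.10, adjusted p = 0.0114) and in Late against Early SAFit2 (0.44, SE 0.11, adjusted p = 0.00693). In the latter Mbtps1 (-0.49), Nfya, a subunit of the CCAAT-binding complex (-0.68), Nr1h2 (-0.72) and Scap (-0.54) fell. Of the 12, 1 was called higher and 0 lower between the Vehicle timings, against 9.11% of all genes. Between the SAFit2 timings 1 was called higher and 4 lower, against 20.5% of all genes. With the GC and length trend removed, Srebf1, Scap and Nr1h2 were not called in the late treatment comparison (-0.49, -0.22 and -0.21), and Insig1 was called in both comparisons of timing (0.41 and 0.35). Between the SAFit2 timings Mbtps1 (-0.41) and Nfya (-0.65) were called lower with the trend removed, against 15.9% of all genes called. Nr1h2 (-0.33, adjusted p = 0.130) and Scap (-0.13, adjusted p = 0.328) were not called. Between the Vehicle timings 3 of 12 were then called higher (Srebf1 0.43, Srebf2, another SREBP gene, 0.43 and Insig1) and 1 lower (Nfya, -0.47), against 15.5% of all genes called.

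Of 14 genes of cholesterol uptake, transport and efflux, 1 was called higher and 3 lower in Late SAFit2 against Late Vehicle, against 12.1% of all genes called, with a median of -0.14. Vldlr rose (0.41, SE 0.12, adjusted p = 0.0349), while Apoe, the main lipid carrier of the nervous system (-0.61, SE 0.18, adjusted p = 0.0369), the receptor Lrp1 (-0.79, SE 0.23, adjusted p = 0.0359) and Cyp46a1, the hydroxylase by which neurons dispose of cholesterol (-0.54, SE 0.18, adjusted p = 0.0498), fell. In Late against Early Vehicle Apoe (0.53, SE 0.17, adjusted p = 0.0466) and Npc1, a lysosomal cholesterol exporter (0.35, SE 0.10, adjusted p = 0.0365), rose. These were 2 of 14, against 9.11% of all genes called. In Late against Early SAFit2 Lrp1 fell (-0.79, SE 0.24, adjusted p = 0.0207) and none rose past the test, although 9 of 14 were above 0. Of all genes 20.5% were called there. In the late treatment comparison 0 of the 14, as of all genes, were called after removal of the GC and length trend. Between the SAFit2 timings Lrp1 was then -0.22 (adjusted p = 0.199) and not called. Apoe was called higher there (0.31, adjusted p = 0.0193), 1 of 14 against 15.9% of all genes. Apoe (0.40) and Npc1 (0.40) stayed called in Late against Early Vehicle, among 3 of 14 called higher, against 15.5% of all genes.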

How the data were processed

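RNA of L4-L6 spinal cord quadrants from 22 mice was sequenced with a directional kit. According to the submitters' processing notes and the methods, the authors trimmed reads (Trimmomatic), aligned them to mm10 (HISAT2), counted them per gene (featureCounts) and normalised with trimmed mean of M-values factors (edgeR is named). The deposited values are log2 CPM, with a floor of -3.15. The notes do not give a prior count, and 2 was inferred. The reads behind the values were whole in 100% of cases (tolerance 0.02 reads) and were used for depth and limma voom. Depth limits precision most for Lss and Dhcr7.

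Genes at log2 CPM of -1 or more in 5 libraries were fitted with limma 3.58.1 (R 4.3.3) over all 22 mice, with a variance trend and Benjamini-Hochberg adjustment over 16765 genes. Calls needed an adjusted p under 0.05 and 1.2-fold. Single enzymes also had two-sided exact permutation tests over mice. P-values were not adjusted over the 8 enzymes alone. The script was tested on simulated data. Replicates are mice by the study's methods. GC content and length came from the longest GENCODE M21 transcript for 16699 genes, and the correction was a loess trend (span 0.5) for each library. Same-numbered libraries did not pair: of 10 pairs, 2 deviated together with r over 0.1 (-0.24 to 0.32). Other pathway genes are named where called, or as the extremes of their list in the late comparison, except for genes that are not reported here. The enzymes and gene lists were chosen with earlier results of these data known. Alternatives were other filters, pseudocounts, variance models, normalizations, 2 groups alone, the replicate block, GC correction, voom and leaving out each library.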

Additional observations from a re-analysis of the deposited data

Results flagged for a closer look

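Among the 32 combinations of 8 enzymes and 4 groups, 5 had 1 mouse whose distance to the next exceeded Dixon's 95% critical value, which chance alone does in about 1 of 20 groups. Early SAFit2 1 was high for Cyp51 (7.52 log2 CPM, against 7.20 to 7.24 in the other 4 mice) and for Idi1 (7.36, against 6.69 to 6.88). Early Vehicle 4 was high for Fdps (6.71, against 6.31 to 6.39). Late Vehicle 6 was low for Fdft1 (7.13, against 7.38 to 7.52). Late Vehicle 5 was high for Lss (4.67, against 4.14 to 4.30).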

How the results depend on the processing

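Where no share of all genes called stands beside a count below, the count is of enzymes alone. Such a count does not set the enzymes apart from a change of the whole fit. Late SAFit2 against Late Vehicle was the comparison most dependent on settings, with 12.1% of all genes called as reported and 0% with GC and length correction. The number of enzymes called there, 1 in the reported fit, was 4 with library quality weights, 3 with the replicate block, and 0 without a variance trend, with the 2 groups alone, with GC and length correction, and with that correction and the replicate block. It ran from 0 to 5 when single libraries were left out, with 5 without Late Vehicle 6, 4 without Late Vehicle 2, 3 without Early Vehicle 5 and 2 without Late SAFit2 1. In Late against Early Vehicle, 2 enzymes were called as reported, 4 with quality weights, GC and length correction or voom, 5 with median centring, and 2 to 4 without single libraries (4 without Early Vehicle 4 or Late Vehicle 6). Of all genes, 9.11% were called there as reported and 15.5% with GC and length correction. The mean effect had 1 called with quality weights. The early minus late effect had 3 with quality weights, 1 (Idi1) with the replicate block and 0 to 1 without single libraries (1 without Late Vehicle 6), and its median, -0.05, ran from -0.13 to 0.00069. In Late against Early SAFit2, 2 enzymes were called with quantile normalization, and the median, 0.40 as reported, was 0.52 with median centring, 0.27 with quantile normalization and 0.31 with GC and length correction. Of all genes, 20.5% were called there as reported and 15.9% with GC and length correction. The median r of pairs, 0.073, was 0.41 with group means kept in and 0.00053 without the 2 libraries farthest from the median, and between 0.032 and 0.22 with the other settings. It was not computed within the SAFit2 groups, which have fewer than 6 mice.

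The largest log2 fold changes to turn direction were, as reported, 0.15 for Hmgcs1 (Late against Early Vehicle) and 0.14 for Lss (early). Directions turned only for fold changes that were not called. With GC and length correction this was Fdft1 (late 0.048, mean effect 0.0080, early minus late -0.080), Sqle (late -0.032) and Cyp51 (mean effect -0.0045). With that correction and the replicate block it was Hmgcs1 (early 0.0031), Fdft1 (late 0.011, early minus late -0.051) and Sqle (late -0.029). With quality weights it was Lss (early -0.0020), with quantile normalization Sqle (late -0.032) and Hmgcs1 (Late against Early Vehicle -0.065), and with median centring Sqle (mean effect 0.012) and Fdft1 (early minus late -0.016). Without single libraries, log2 fold changes ran across 0 for Hmgcs1 (-0.069 to 0.014) and Fdft1 (-0.040 to 0.032) early, for Fdps (-0.12 to 0.036) and Sqle (-0.044 to 0.077) late, and for Sqle as the mean effect (-0.041 to 0.019). For early minus late they did so for Fdps (-0.15 to 0.015), Fdft1 (-0.0065 to 0.10) and Sqle (-0.11 to 0.0058), and for Dhcr7 in Late against Early SAFit2 (-0.011 to 0.22). The replicate block does not apply across timings, and the same numbers name different mice there. Depth limits Lss and Dhcr7 most.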
